A study of Mus musculus with 6 samples.

Results

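The 5 NF-kB subunit genes (Nfkb1, Nfkb2, Rel, Rela and Relb) and 5 genes of the inhibitor family that binds them (Nfkbia, Nfkbib, Nfkbie, Nfkbid and Nfkbiz) were followed in cultured mouse CD8+ T cells. These 10 genes were taken by symbol from the 14481 genes of the deposited count table, and all 10 were present and entered the test. Wild-type (WT) CD8+ T cells had been sorted, stimulated on plates coated with anti-CD3e at 1 µg/ml, with 1 µg/ml of soluble anti-CD28 and 0.1 µg/ml of interleukin 2, and given conditioned medium (CM) at day 1. In 3 libraries the medium came from pSTAT3- astrospheres, here STAT3- CM, and in the other 3 from pSTAT3+ astrospheres, here STAT3+ CM. All 6 were taken at day 3. Both groups share the stimulation and the addition of a CM at day 1, and they differ in the source of that CM. Cells without CM were not analysed here. The labels do not say whether replicates were separate mice, cultures or batches of medium, and the p-values then measure only the spread between these samples, which may be technical.

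NF-kB is a family of transcription factors that act as paired subunits. In resting cells the classical inhibitors, the IkB proteins encoded by Nfkbia, Nfkbib and Nfkbie, hold the pairs in the cytoplasm. Signals from the T cell receptor with CD28, or from receptors of the tumour necrosis factor family, lead to phosphorylation and breakdown of the IkB proteins, and the freed subunits enter the nucleus. Nfkbia is itself switched on by NF-kB and closes a negative feedback loop. In CD8+ T cells the pathway is known for its part in activation, survival and cytokine production.

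Several of these genes carry a kappaB site, the DNA sequence that NF-kB binds, in front of their own start site. The kappaB consensus was searched by name on both strands of the RefSeq promoters of GRCm38.p6, which run from 250 bases before to 50 bases after each annotated start. Promoters were present for 7 of the 10 genes, and for Nfkb1, Relb and Nfkbiz none was held. These 7 genes had 11 promoters, as a gene can have more than 1 annotated start, and a match in any of them was counted. The consensus occurred in a promoter of 5 of these 7, and of 5.14% of all 27025 genes with a promoter. By promoter, it occurred in 4.51% of all 32851. The sites below are shown because, of the 7 genes searched, 2 subunits and 3 inhibitors have a match to the target sequence of the proteins they encode or bind. Each is written 5′ to 3′ on the gene's strand with the bases that match in capitals.
Nfkbia, chr12:55492658-55492685, minus strand: gactggcttGGAAATTCCCcgcgcctga
Nfkbie, chr17:45555585-45555612, plus strand: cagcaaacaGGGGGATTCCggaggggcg
Nfkbid, chr7:30422171-30422198, plus strand: ccccgccctGGGACTTCCCagagcacca
Nfkb2, chr19:46304689-46304717, plus strand: gatcgtcacGGGAATTCCCCccctcgggg
Rel, chr11:23771042-23771070, minus strand: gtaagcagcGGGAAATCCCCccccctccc
The Nfkb2 and Rel runs each hold 2 overlapping matches, 1 of which reads on both strands. The first matching base lay 29 bases before the start of that promoter in Nfkbia, 39 in Nfkb2, 92 in Rel, 106 in Nfkbie and 226 in Nfkbid. Nfkb2 and Nfkbid had further matches, not shown, and Nfkbid also had promoters without a match. The promoters of Rela and Nfkbib had no match in this window. A match describes the letters only, and binding was not measured.

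Total counts ran from 43346089 to 53630514 per library. The 10 genes took 0.126% to 0.175% of them, with the fewest counts of a gene in a library at 1336 (Nfkbiz) and the most at 27725 (Nfkb1). Levels are given as CPM, read counts put on a common scale by library total and TMM factor, which corrects for differences in composition. The defining T cell markers matched the label. Cd8a stood at 847 ± 80.3 CPM with STAT3- CM against 908 ± 138 with STAT3+ CM (SD, n = 3 each), Cd4 at 1.03 ± 0.517 and 1.26 ± 0.245, and of 5 B cell markers only Cd79b was in the table, at 7.40 to 10.7 CPM with STAT3- CM and 10.9 to 11.8 with STAT3+ CM. Of 10 dendritic cell markers 6 were in the table, without Flt3, Clec9a, Xcr1 and Siglech. Their sum was 86.5 to 128 CPM with STAT3- CM and 56.6 to 68.5 with STAT3+ CM, most of it Cd74. Monocyte and macrophage markers summed to 3.28 to 10.2 CPM with STAT3- CM and 3.48 to 5.57 with STAT3+ CM.

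The subunit genes stood lower in STAT3+ CM on average, all 5 of them, but none of the differences passed the test. By the quasi-likelihood F test of edgeR, adjusted after Benjamini and Hochberg over 14319 genes, 0 of the 10 genes passed an adjusted p of 0.05, as did 0% of all genes tested. At an unadjusted p under 0.05 stood 0 of the 10, against 521 genes or 3.64% of all genes. That count of 521 became 340, 465 and 938 without STAT3- CM replicates 1, 2 and 3 in turn. It became 529, 294 and 1362 without STAT3+ CM replicates 1, 2 and 3 in turn. Of all genes 48 were called by DESeq2, 14 by limma-voom with quality weights and 0 by limma-voom without them, and each of these called 0 of the 10. The log2 fold change, STAT3+ CM over STAT3- CM, was negative for 5 of 5 subunits with a median of -0.21. Of all genes 50.2% were positive, and the median of all genes was 0.00076. The 5 subunits were measured in the same 6 libraries and varied together (Pearson's r of log2 CPM 0.24 to 0.82), so their signs are not independent. For the 3 classical inhibitors the median log2 fold change was 0.02, and for all 10 genes it was -0.11. Beside these values, the dendritic cell markers summed lower in all 3 STAT3+ CM libraries. Of their 6 log2 fold changes 5 were negative, and 4 had an unadjusted p under 0.05 by edgeR. Most of the sum was Cd74, at 50.7 to 94.2 CPM with STAT3- CM and 36.1 to 44.7 with STAT3+ CM. Itgax was nearly level (log2 fold change -0.04, SE 0.29), and H2-Ab1 lay on the positive side (0.13, SE 0.22). Of the 6 dendritic cell markers, DESeq2 called H2-Aa and Cd74, which encode a class II chain and its invariant chain. By edgeR and both limma-voom fits 0 were called. The 6 CD8 T cell markers were all on the positive side (median log2 fold change 0.19, 0 of 6 at an unadjusted p under 0.05), and the B cell marker Cd79b was higher in all 3. The part of such cells in the subunit values was not tested. In bulk RNA, fewer cells of a type and less RNA per cell cannot be told apart.

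**Figure D1:**
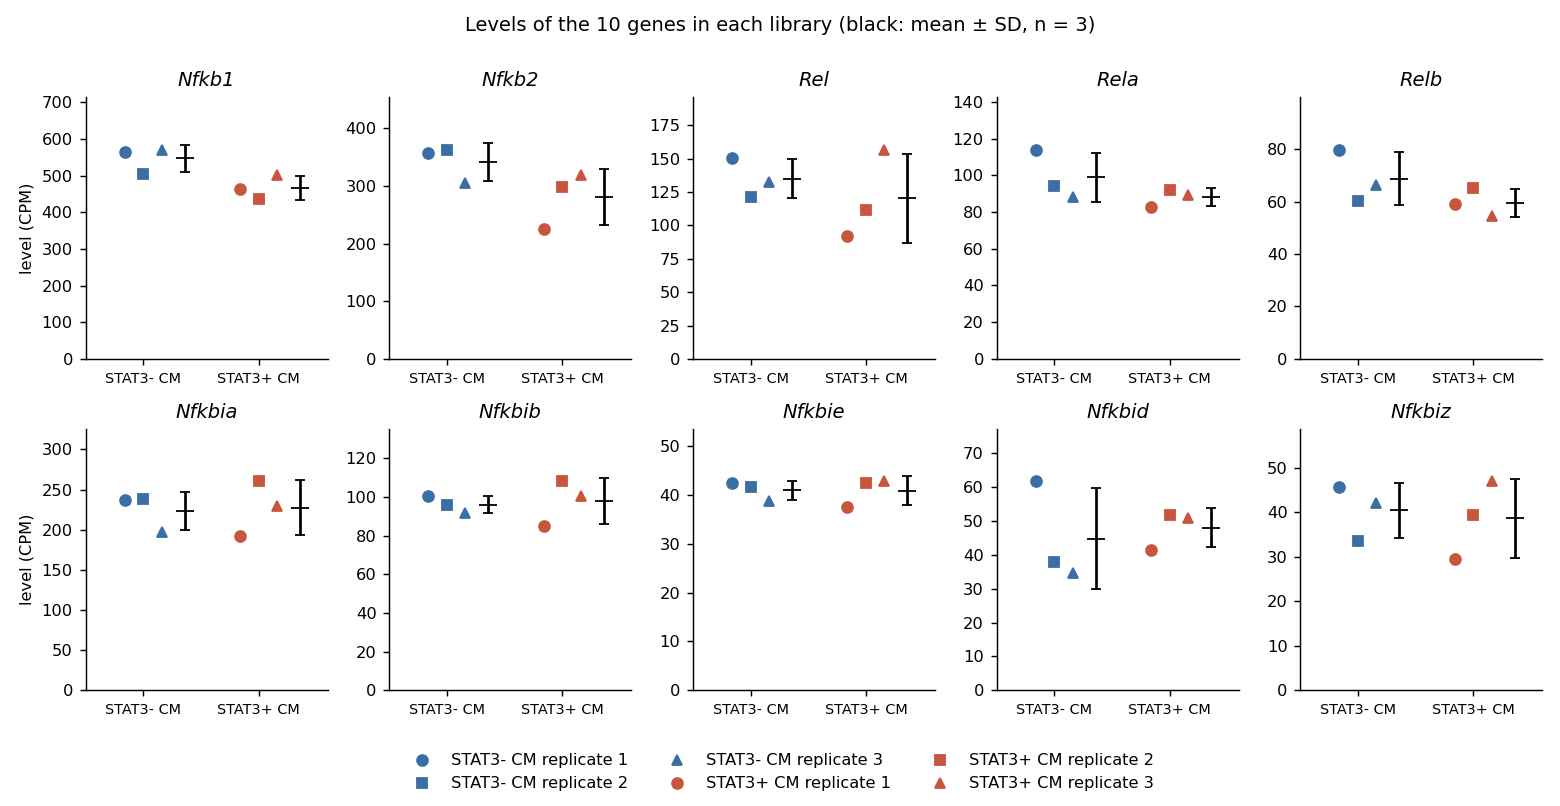
Level of each of the 10 genes in CPM (vertical axes start at 0) by medium, with 1 symbol per library and the mean ± SD of 3 libraries in black. With this scaling, though not with library totals alone, Nfkb1 is the gene whose 3 STAT3+ CM libraries all lie below the 3 STAT3- CM libraries, and STAT3+ CM replicate 1 is the lowest library in 7 of the 10 genes.

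Nfkb1 encodes p105, which is processed to the DNA-binding subunit p50. Its level was 565, 506 and 571 CPM in STAT3- CM replicates 1 to 3 and 464, 436 and 501 CPM in STAT3+ CM replicates 1 to 3. Every STAT3+ CM library was below every STAT3- CM library, though the nearest pair, 501 and 506 CPM, was close. The groups lay apart in this direction in 1 of the 10 genes and in 4.18% of all genes, and with STAT3+ CM higher in 0 of the 10 and in 3.78% of all genes. When library totals alone set the scale, the groups of Nfkb1 overlapped, as STAT3+ CM replicate 3 (517 CPM) lay above STAT3- CM replicate 2 (499 CPM). On that scale Rela was the gene without overlap, its highest STAT3+ CM library (92.1 CPM) lying just under its lowest STAT3- CM library (92.9 CPM). Nfkb1 had a log2 fold change of -0.23 (SE 0.13, 95% interval -0.51 to 0.05), from 547 ± 36.1 to 467 ± 32.4 CPM (edgeR, unadjusted p = 0.102, adjusted p = 0.989).

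Nfkb2 encodes p100, the precursor of p52 and the inhibitor at the centre of the non-canonical pathway. It had the smallest p of the 10 genes. It stood at 357, 363 and 304 CPM with STAT3- CM against 226, 297 and 318 CPM with STAT3+ CM. STAT3+ CM replicate 1 was far below the rest, and STAT3+ CM replicate 3 lay above STAT3- CM replicate 3, so the groups overlapped. The log2 fold change was -0.28 (SE 0.15, 95% interval -0.63 to 0.06; edgeR, unadjusted p = 0.0943, adjusted p = 0.989). Without STAT3+ CM replicate 1 it was -0.15, and without STAT3+ CM replicate 3 it was -0.38 (unadjusted p = 0.0451, adjusted p = 0.525 by edgeR). Without STAT3- CM replicate 3 it was -0.36 (unadjusted p = 0.0429, adjusted p = 0.747 by edgeR). By limma-voom with quality weights on all 6 libraries it was -0.34 (unadjusted p = 0.0229, adjusted p = 0.542). In the remaining alternatives the unadjusted p of Nfkb2 was above 0.05.

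Rel encodes c-Rel, the subunit most tied to lymphocyte activation, and Rela encodes p65, the main transactivating subunit of the classical pathway. Rel stood at 151, 121 and 133 CPM with STAT3- CM against 92.4, 111 and 157 CPM with STAT3+ CM. The STAT3+ CM libraries held both its lowest and its highest value. Its log2 fold change was -0.16 (SE 0.19, 95% interval -0.58 to 0.25), and it turned on single libraries: -0.01 without STAT3+ CM replicate 1, -0.08 without STAT3- CM replicate 1, and -0.40 without STAT3+ CM replicate 3 (unadjusted p = 0.0283, adjusted p = 0.505 by edgeR). Rela stood at 114, 94.1 and 88.3 CPM with STAT3- CM against 82.8, 92.2 and 89.2 CPM with STAT3+ CM. Only STAT3- CM replicate 1 was high, and the other 5 libraries lay between 82.8 and 94.1 CPM. The log2 fold change of Rela was -0.17 (SE 0.13, 95% interval -0.46 to 0.12), and -0.05 without STAT3- CM replicate 1.

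Relb encodes RelB, the partner of p52 in the non-canonical pathway. It stood at 79.8, 60.2 and 66.2 CPM with STAT3- CM against 58.9, 65.2 and 54.4 CPM with STAT3+ CM. As in Rela, STAT3- CM replicate 1 was the highest library, and the groups overlapped. The log2 fold change was -0.21 (SE 0.14, 95% interval -0.52 to 0.10), and -0.09 without STAT3- CM replicate 1. For the 5 subunits the intervals reach from -0.63 to 0.25 in all, so halving or doubling (a log2 fold change of -1 or 1) lies outside each of them.

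**Figure D2:**
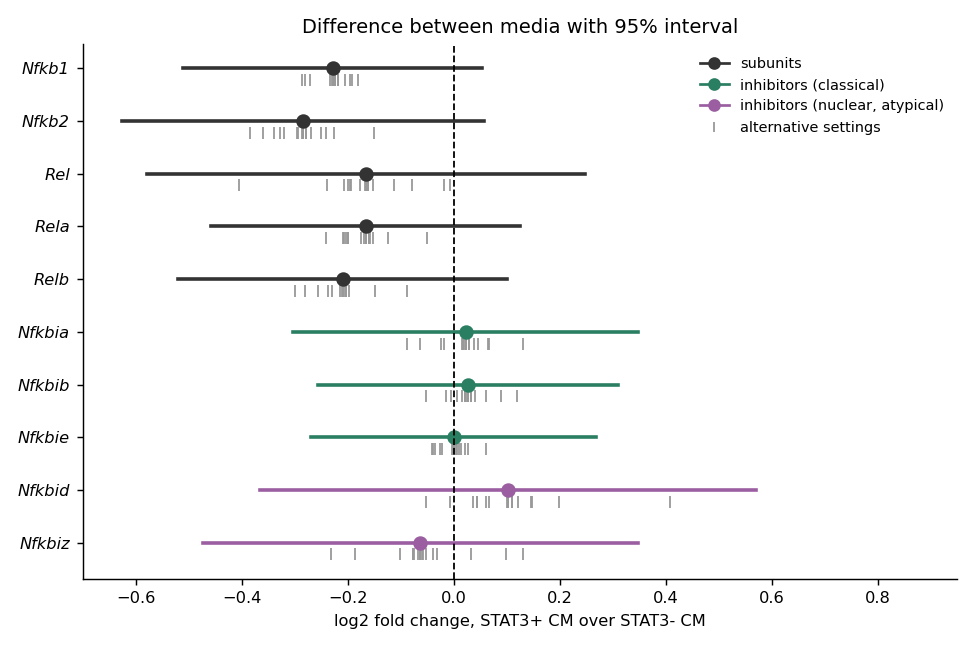
Log2 fold change (STAT3+ CM over STAT3- CM, horizontal axis) of each gene, with its 95% interval as a line and the values under 17 alternative settings as grey ticks below it. All 5 subunits lie left of 0 under each setting but every interval spans 0, and the inhibitors lie on both sides.

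The 3 classical inhibitors stood at nearly the same mean in both media. Nfkbia, which encodes IkB alpha, stood at 237, 238 and 197 CPM with STAT3- CM against 192, 261 and 229 CPM with STAT3+ CM. The lowest and the highest library were both from STAT3+ CM, replicates 1 and 2. Nfkbia had a log2 fold change of 0.02 (SE 0.15, 95% interval -0.30 to 0.35), with means of 224 ± 23.5 and 227 ± 34.5 CPM. Leaving out single libraries or using library totals alone moved it to either side of 0, from -0.09 to 0.13 over the 17 alternatives.

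Nfkbib, which encodes IkB beta, stood at 101, 95.7 and 91.8 CPM with STAT3- CM against 84.7, 108 and 100.5 CPM with STAT3+ CM. Nfkbie, which encodes IkB epsilon, stood at 42.4, 41.7 and 38.7 CPM with STAT3- CM against 37.4, 42.4 and 42.9 CPM with STAT3+ CM. In both, STAT3+ CM replicate 1 was the lowest and the remaining libraries of the media were mixed. Their log2 fold changes were 0.03 (SE 0.13, 95% interval -0.26 to 0.31) and 0.00007 (SE 0.12, 95% interval -0.27 to 0.27), and both changed sign under some of the alternatives. Nfkbie varied least of the 10, with its highest library 1.15 times its lowest.

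Nfkbid and Nfkbiz encode the nuclear members of the family, IkBNS and IkB zeta, which act on NF-kB at DNA and can help as well as hinder transcription. Nfkbid stood at 61.9, 37.7 and 34.7 CPM with STAT3- CM against 41.4, 51.9 and 50.8 CPM with STAT3+ CM. It varied most of the 10, its highest library being 1.78 times its lowest, and STAT3- CM replicate 1 lay above all others. Nfkbid had a log2 fold change of 0.10 (SE 0.21, 95% interval -0.37 to 0.57). Without STAT3- CM replicate 1 it was 0.41 (unadjusted p = 0.0345, adjusted p = 1.00 by edgeR), and without STAT3- CM replicate 3 it was -0.05. Nfkbiz stood at 45.6, 33.5 and 42.2 CPM with STAT3- CM against 29.4, 39.4 and 47.1 CPM with STAT3+ CM, with the lowest and the highest library both from STAT3+ CM. Its log2 fold change was -0.06 (SE 0.18, 95% interval -0.47 to 0.35), and it was 0.10 without STAT3+ CM replicate 1. Bcl3, a further nuclear gene of the family, stood at 20.7, 24.6 and 35.6 CPM with STAT3- CM against 39.5, 26.4 and 27.4 CPM with STAT3+ CM (log2 fold change 0.21, SE 0.22). Its highest library was STAT3+ CM replicate 1, the one in which 7 of the 10 genes were lowest.

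Levels of different genes were compared after division by the length of the longest annotated transcript, as CPM per kilobase. Nfkbia was the most abundant at 142 ± 14.9 CPM per kilobase with STAT3- CM against 144 ± 21.9 with STAT3+ CM, followed by Nfkb1 at 132 ± 8.70 and 113 ± 7.80. Their ranges over the 6 libraries overlapped. Nfkb2 (range 58.7 to 94.4 CPM per kilobase) lay below both and above Nfkbib (41.1 to 52.5), with no overlap. Nfkbib and Rela (30.5 to 42.0) overlapped at the edge. Rela lay just above Nfkbid (17.0 to 30.3), and Nfkbid, Relb (16.6 to 24.4), Rel (12.4 to 21.0) and Nfkbie (12.45 to 14.3) each overlapped the next. Nfkbiz was lowest, at 7.15 to 11.4 CPM per kilobase. For Nfkb1, Relb and Nfkbie the longest transcript is annotated with a retained intron. Only Nfkbia, Nfkb1 and Nfkbiz kept their places under each length used. Nfkbid was in place 6 by longest transcript, 7 by median transcript and 9 by coding length. Nfkb2 was in places 3, 4 and 3 in that order, and Nfkbib in places 4, 5 and 4. Rel has a long single transcript, and its mean over the libraries was 17.1 CPM per kilobase of that transcript but 72.3 per kilobase of coding length, while Rela was at 34.4 per kilobase of its longest and 119 of its median transcript.

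**Figure D3:**
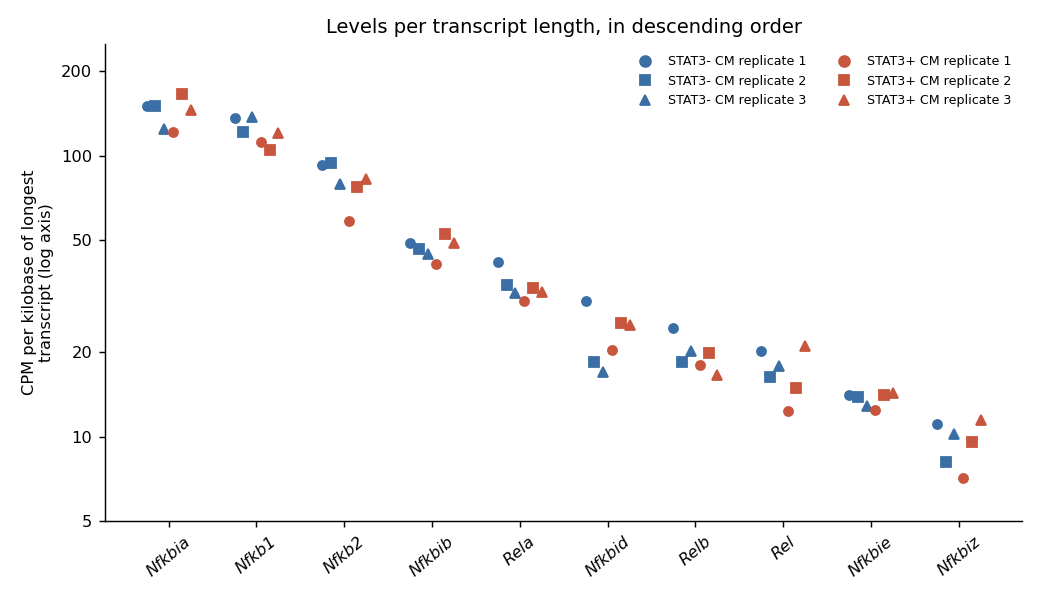
Level of each gene in CPM per kilobase of its longest annotated transcript (vertical log axis), 1 symbol per library, with genes ordered by their mean over 6 libraries. Nfkbia and Nfkb1 are at the top with overlapping ranges, and Nfkbiz is lowest at 7.15 to 11.4.

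Per length, Nfkb1 made up 44.6 ± 2.90% of the summed subunit RNA with STAT3- CM against 44.8 ± 3.30% with STAT3+ CM, and Nfkb2 30.0 ± 2.80% and 28.8 ± 2.97%. Rela was at 12.3 ± 1.00% and 12.9 ± 0.800%, Relb at 7.07 ± 0.645% and 7.25 ± 1.03%, and Rel at 6.09 ± 0.359% and 6.32 ± 1.21%. These shares use the longest transcript, and their order depends on that choice. By coding length, the mean over the libraries was higher for Rel (72.3 CPM per kilobase) than for Rela (56.7) and Relb (38.3). By median transcript length, Rela (119) lay above Nfkb2 (107). For each of the 5 the groups overlapped, and no subunit's share set the media apart. The sum itself was 315, 286 and 287 CPM per kilobase with STAT3- CM against 232, 251 and 274 with STAT3+ CM, and the groups did not overlap on this scale. With library totals alone they did, as STAT3+ CM replicate 3 (283) lay just above STAT3- CM replicate 2 (282). The 5 inhibitors summed to 255, 238 and 209 CPM per kilobase with STAT3- CM against 203, 267 and 245 with STAT3+ CM, with the groups mixed.

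The ratio of the inhibitor sum to the subunit sum does not depend on how libraries are scaled. It was 0.807, 0.832 and 0.728 with STAT3- CM against 0.875, 1.06 and 0.893 with STAT3+ CM. All 3 STAT3+ CM libraries were above all 3 STAT3- CM libraries, with means of 0.789 ± 0.0541 and 0.944 ± 0.104, or 1.20 times as high. This ratio was formed from the 10 genes after their values had been seen and has no test. Nfkbia, Nfkb1 and Nfkb2 dominate it. The groups also lay apart with median transcript length, coding length or no length (1.19 times each). Without STAT3+ CM replicate 2, the library with the highest ratio, it was 1.12 times. The counts of Nfkbia over those of Nfkb1 alone did overlap. They were 0.420, 0.470 and 0.344 with STAT3- CM against 0.413, 0.598 and 0.458 with STAT3+ CM. The subunit sum also includes Nfkb2, whose product p100 is itself an inhibitor, so the 2 sums do not cleanly part subunits from inhibitors.

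**Figure D4:**
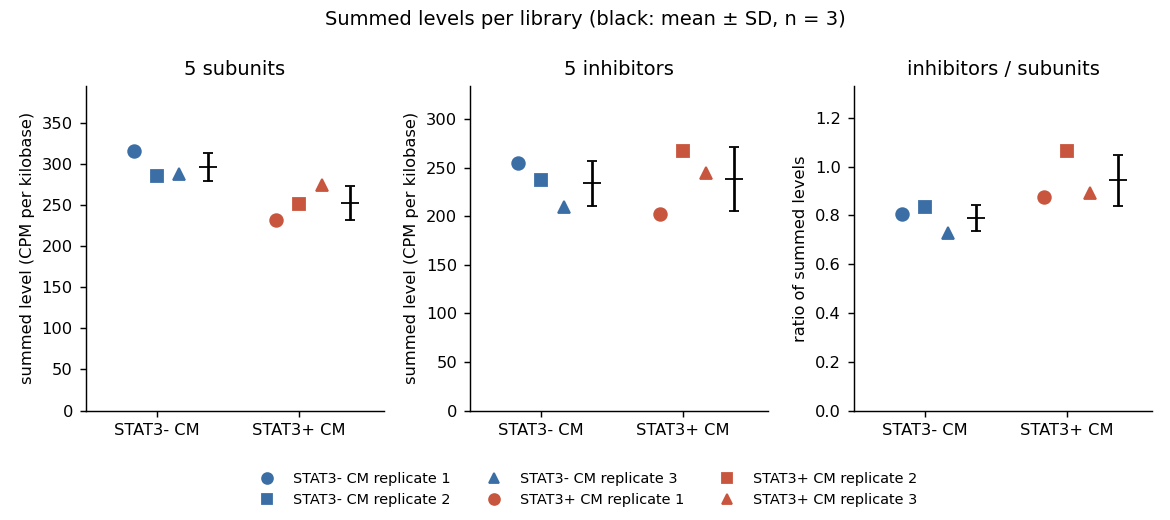
Summed level of the 5 subunits and of the 5 inhibitors in CPM per kilobase, and the ratio of the sums, by library (vertical axes start at 0; mean ± SD of 3 libraries in black). The subunit sum is lower in all 3 STAT3+ CM libraries (232 to 274) than in the STAT3- CM libraries (286 to 315) with TMM scaling but not with library totals alone, the inhibitor sums overlap, and the ratio is higher in all 3 STAT3+ CM libraries.

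How the 10 genes varied together across the 6 libraries is described here by Pearson's r of log2 CPM. All 6 points share their scaling by library, and 3 share each medium. The 3 classical inhibitors formed the tightest group: r was 0.92 for Nfkbia and Nfkbib, 0.90 for Nfkbia and Nfkbie, and 0.90 for Nfkbib and Nfkbie. Of these, Nfkbia and Nfkbie carry a kappaB match in the promoter window and Nfkbib does not. Rel and Nfkbiz had 0.91, and Rela and Relb 0.82. Nfkb1 had negative values with 4 of the 5 inhibitors, from -0.31 with Nfkbia to -0.04 with Nfkbie, but 0.49 with the fifth, Nfkbiz, close to its values with Rela (0.48) and Relb (0.49). Of the 45 pairs 41 were positive, and the median was 0.51. The same count was not made over other genes, so it cannot be read as a trait of this family. STAT3+ CM replicate 1 was the lowest library in 7 of the 10 genes, the 3 classical inhibitors among them. The part of that library in these values was not tested.

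**Figure D5:**
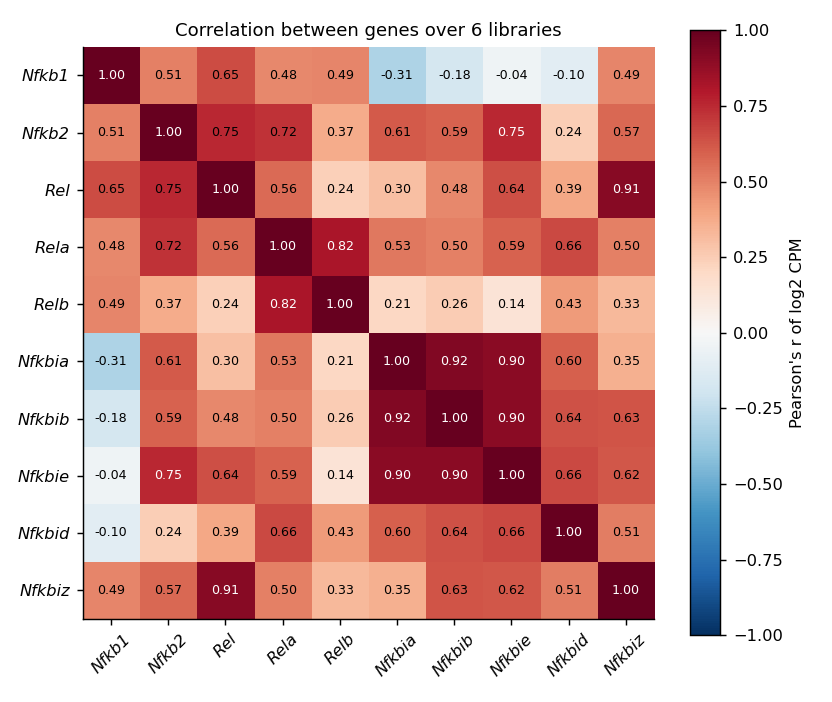
Pearson's r of log2 CPM between each pair of the 10 genes over 6 libraries, printed in each cell and coloured from -1 (blue) to 1 (red). Nfkbia, Nfkbib and Nfkbie form a block of 0.90 to 0.92, and the 4 negative values lie between Nfkb1 and the inhibitors other than Nfkbiz.

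Among 10673 other genes with at least 1 CPM in both groups, those most like Nfkb2 across the 6 libraries were Pmaip1, which encodes the cell death protein NOXA, Lad1, which encodes ladinin, and Arg2, which encodes the mitochondrial arginase, each with r of 0.99. These r values are the highest of 10673 over only 6 libraries. The same search was not made for other genes, so their size does not mark a special likeness to Nfkb2. Lad1 stood at 197, 195 and 140.5 CPM with STAT3- CM against 90.6, 145 and 166 with STAT3+ CM. Like Nfkb2, all 3 had their lowest library in STAT3+ CM replicate 1 and groups that overlapped. Their log2 fold changes were -0.23 (SE 0.14), -0.41 (SE 0.22) and -0.85 (SE 0.43).

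The kinases and adaptors that carry signals to the IkB proteins did not pass the test either. Of 25 tested 0 passed over all genes, 0 had an unadjusted p under 0.05 (3.64% of all genes), 8 had positive and 17 negative log2 fold changes, and the median was -0.08. The smallest p-values were those of Tab2, an adaptor of the kinase TAK1 (log2 fold change -0.23, SE 0.14), the ubiquitin ligase Birc2 (-0.23, SE 0.14), the ligase Traf6 (-0.21, SE 0.12) and Map3k14, the kinase NIK that starts the non-canonical pathway (-0.23, SE 0.15). Birc2 stood at 70.2, 64.8 and 88.0 CPM with STAT3- CM against 64.4, 62.5 and 63.6 with STAT3+ CM. It was the 1 of the 25 whose groups did not overlap, against 7.95% of all genes in either direction.

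Other negative regulators lay in a similarly narrow range. Of 15 tested 0 passed, 0 had an unadjusted p under 0.05 (3.64% of all genes), 4 were positive and 11 negative, and the median was -0.06. Tnfaip3, the ubiquitin-editing enzyme A20, is a target of NF-kB that shuts its signalling down. It stood at 91.5, 74.4 and 98.9 CPM with STAT3- CM against 65.6, 72.3 and 93.9 with STAT3+ CM (log2 fold change -0.19, SE 0.16), with mixed groups and STAT3+ CM replicate 1 lowest. Commd1 (0.19, SE 0.15), N4bp1 (-0.18, SE 0.17) and Otud7b (-0.16, SE 0.17) had the other smallest p-values. The groups of 1 of the 15 did not overlap, against 7.95% of all genes. It was Tnip1, which encodes the A20-binding protein ABIN1 and is named here after its values were seen, at 103 to 111 CPM with STAT3- CM against 95.6 to 102 with STAT3+ CM.

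Receptors upstream of NF-kB had values on both sides of 0. DESeq2 and both limma-voom fits called 0 of them, and 0 of the other pathway genes described here. Of 16 listed, Il1r1 was not in the table. Of the 15 tested 0 passed, 7 were positive and 8 negative, and the median was -0.02, while 4 had an unadjusted p under 0.05, 2 in each direction, against 3.64% of all genes. Tnfrsf25, the death receptor DR3, stood at 2.94, 3.38 and 3.72 CPM with STAT3- CM against 4.16, 6.25 and 5.11 with STAT3+ CM, with the groups apart (log2 fold change 0.62, SE 0.23; edgeR adjusted p = 0.989). Il18r1, a chain of the interleukin 18 receptor, stood at 52.1, 51.1 and 81.9 CPM with STAT3- CM against 52.9, 31.8 and 36.1 with STAT3+ CM, where STAT3- CM replicate 3 was high and the groups overlapped (-0.62, SE 0.23). Tnfrsf8, which encodes CD30, had 0.47 (SE 0.21). Cd40, a receptor of antigen-presenting cells, was near the floor at 0.618, 1.28 and 0.325 CPM with STAT3- CM against 0.132, 0.264 and 0.289 with STAT3+ CM (-1.67, SE 0.56). It stands beside the lower sum of the dendritic cell markers, most of which is Cd74. The part of such cells in the value of Cd40 was not tested.

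Genes that NF-kB is known to drive also lay on both sides of 0. Of 30 tested 0 passed, 17 were positive and 13 negative, and the median was 0.03. An unadjusted p under 0.05 was seen in 3 of the 30, against 3.64% of all genes, and the groups did not overlap in 6, 3 in each direction, against 7.95% of all genes. Sdc4, the cell surface proteoglycan syndecan 4, had the smallest p. It stood at 11.0, 10.6 and 9.90 CPM with STAT3- CM against 4.03, 7.16 and 6.57 with STAT3+ CM, all below (log2 fold change -0.83, SE 0.22; edgeR adjusted p = 0.746). Cd83, a surface protein of activated lymphocytes and dendritic cells, stood at 91.3, 89.8 and 75.0 CPM with STAT3- CM against 38.2, 69.3 and 67.2 with STAT3+ CM, also all below (-0.55, SE 0.21). The cytokine gene Lta lay the other way, at 230.3, 324 and 341 CPM with STAT3- CM against 404, 429 and 443 with STAT3+ CM (0.51, SE 0.16, adjusted p = 0.983 by edgeR). The growth regulator Myc also lay higher, at 283, 295 and 307 CPM with STAT3- CM against 338, 344 and 344 with STAT3+ CM (0.21, SE 0.11).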

How the data were processed

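The authors deposited raw read counts, a whole number for each gene and library. Tools named in the submitters' processing notes are Cufflinks 2.2.1, TopHat2 2.0.10, SAMtools 0.1.19, Bowtie 1.0.0 and FastQC, with the build GRCm39. Not given in the sources used here are the counting program, its annotation and strand setting, and the filter behind a lowest gene total of 40. Per the labels, polyadenylated RNA entered a directional library preparation. The depth, 43346089 to 53630514 counts per library, puts at least 1336 counts behind each value of the 10 genes, so the spread between 3 libraries limits the precision.

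Counts were filtered with filterByExpr (14319 genes kept, 162 left out), TMM-scaled and tested over all genes in edgeR 4.0.16 (R 4.3.3) with its robust quasi-likelihood test, two-sided, with Benjamini-Hochberg adjustment at 0.05. The SE was taken as the size of the log2 fold change divided by the root of F, and 95% intervals use the degrees of freedom of that test. Log2 CPM used a prior count of 2. Transcript lengths came from GENCODE (GRCm38), promoters from RefSeq (GRCm38.p6), matched by symbol. Their coordinates are of that build, not of the authors'.

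The 10 genes and all lists were chosen with earlier results of these data known. The rule named the 10 genes, Bcl3, the 4 genes of smallest p in each pathway list, and the 3 genes most like the one of the 10 with the smallest p. Alternatives were other scalings, filters and tests (DESeq2 1.42.0, limma 3.58.1), a replicate block and left-out libraries. The workflow was tested on simulated data.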

Additional observations from a re-analysis of the deposited data

How the results depend on the processing

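Over 17 alternatives 0 of the 10 genes passed in any, and all 5 subunits stayed negative in each. Over all genes edgeR called 0, DESeq2 48, limma-voom with quality weights 14, limma-voom 0, and edgeR 10 with STAT3- CM replicate 3 and STAT3+ CM replicate 1 both left out. That pair came from an earlier analysis of these data. Between libraries of STAT3- CM, chi-square per degree of freedom was 21.9 (replicates 1 and 2), 72.1 (1 and 3) and 77.5 (2 and 3). Replicate 3 was the one set apart there. Between libraries of STAT3+ CM it was 65.5 (replicates 1 and 2), 84.9 (1 and 3) and 72.8 (2 and 3). By this measure STAT3+ CM replicate 3, also the deepest library, lay no nearer to the others than replicate 1. With 1 library left out the count ran from 0 to 18, with 18 without STAT3- CM replicate 3 and 1 without STAT3- CM replicate 1. With the replicate block the count was 0 over all genes and 0 among the 10. The fit without the block also called 0, so these counts cannot show whether the block matters. At an unadjusted p under 0.05 by edgeR stood 709 genes with the block against 521 without it, and 0 of the 10 with either. The libraries share only a number: with group means removed, equal numbers had r of -0.261, 0.281 and 0.182 across genes.

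Of 170 log2 fold changes under the alternatives 21 changed sign, all of inhibitors, and the cause was not tested. With library totals only, which moved the median of all genes to -0.04, Nfkbia was at -0.018, Nfkbib at -0.015 and Nfkbie at -0.040. With quality weights Nfkbia was at -0.023 and Nfkbie at -0.023. Nfkbie was also at -0.0035 with the filter of 1 CPM in 3 libraries, -0.0012 by limma-voom, -5.46e-05 by the older quasi-likelihood method and -0.0014 with the replicate block. Leaving out 1 library at a time gave ranges from -0.088 to 0.13 for Nfkbia, -0.052 to 0.12 for Nfkbib, -0.039 to 0.060 for Nfkbie, -0.051 to 0.41 for Nfkbid and -0.23 to 0.099 for Nfkbiz. With that pair left out Nfkbiz was at 0.13. The alternatives for the ratio and for the sums were chosen after seeing the data.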
